A study of Mus musculus with 2 samples.

Results

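The cells described here are the regulatory T (Treg) cells in which transcripts of Tmem176a and Tmem176b were captured at least 2 times in all. They were selected on the unique molecular identifiers (UMIs, the tags that count captured RNA molecules) of these genes, and numbered 155 of 7024 cells. They are called Tmem176 class cells below, after that rule. Of them, 86 were among 3634 cells of a control library and 69 among 3390 cells of a rescued library.

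Treg cells are the CD4 T cells that express Foxp3 and restrain immune responses. The study asked what such cells look like long after Foxp3 had been restored in mice that lacked it. The control library pooled GFP+ cells of 5 male Foxp3DTR-GFP/y Cd4creERT2 R26Tom mice, whose Foxp3 gene also encodes a GFP and diphtheria toxin receptor fusion protein. The rescued library pooled GFP+ cells of 4 male Foxp3LSL/y Cd4creERT2 R26Tom mice, whose Foxp3 gene was blocked by a stop cassette until Cre recombinase removed it. Mice of both groups were 7 months of age, had been given 4-OHT (4-hydroxytamoxifen, which activates the recombinase) when 14 days old, and gave cells from spleen and lymph nodes. In both groups the Cd4 locus drives the 4-OHT-dependent recombinase in all CD4-expressing cells, which also switches on the tdTomato reporter. Each group is 1 library of pooled mice, so the spread between mice cannot be seen and no p-value is given for any difference. Cells were sorted on GFP, which reports Foxp3. Intervals are 95% and cover counting error only.

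Tmem176a and Tmem176b encode multi-span membrane proteins of intracellular compartments that are related in structure to the CD20-like (MS4A) proteins. They are known to be abundant in dendritic cells and in type 3 lymphocytes, the cells of mucosal surfaces that respond to interleukin 23 and make interleukin 17. Some Treg cells share parts of the type 3 programme. These are known best from the intestine, where many arise outside the thymus in response to microbes and carry little Helios (Ikzf2). The Tmem176 class is examined for genes of that programme below.

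Both genes lie head to head on mouse chromosome 6 (build GRCm38). Tmem176a (ENSMUSG00000023367) runs on the plus strand at chr6:48840919-48847071 and Tmem176b (ENSMUSG00000029810) on the minus strand at chr6:48833818-48841496. RefSeq gives 2 promoter windows for Tmem176a and 3 for Tmem176b, each holding 250 bases before and 50 bases after a transcription start. The pair with the widest overlap is chr6:48841406-48841705 (plus strand, Tmem176a) and chr6:48841325-48841624 (minus strand, Tmem176b), which share 219 bases. The Tmem176a window is printed because most of it also lies in a promoter window of the other gene that chooses the class. It is given from 5′ to 3′ on the plus strand of GRCm38.p6, and capitals mark the bases shared with the Tmem176b window.
Tmem176a window: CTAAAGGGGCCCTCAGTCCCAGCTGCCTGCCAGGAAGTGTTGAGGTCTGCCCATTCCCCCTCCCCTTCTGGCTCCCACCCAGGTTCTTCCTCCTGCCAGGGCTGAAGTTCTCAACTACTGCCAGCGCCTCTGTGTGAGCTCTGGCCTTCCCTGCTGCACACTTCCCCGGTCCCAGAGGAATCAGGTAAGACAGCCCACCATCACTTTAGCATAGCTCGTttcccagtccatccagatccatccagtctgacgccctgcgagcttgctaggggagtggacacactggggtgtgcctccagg
The letters AGGTCA, the half-site that many nuclear receptors bind, were searched on both strands. They occurred in none of the 5 windows of these genes (0 windows), and in 16.3% of the 32851 promoter windows of all genes. This says only that these letters are not in these windows.

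Most cells held no Tmem176 transcript. The summed UMIs were 0 in 3446 control and 3257 rescued cells, exactly 1 in 102 and 64 cells, and exactly 2 in 51 and 33 cells. At 3 or more UMIs there were 35 control and 36 rescued cells, and the highest cells held 13 and 19 UMIs. The class therefore has no gap at its lower edge. It took 2.37% of control cells (interval 1.90 to 2.91) and 2.04% of rescued cells (1.59 to 2.57). The difference between the libraries lies within these intervals. After every cell had been thinned to 2000 UMIs the shares were 1.01% and 0.745%. The class held 72.6% of the 372 Tmem176 UMIs of the control library and 77.4% of the 283 of the rescued library.

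**Figure D1:**
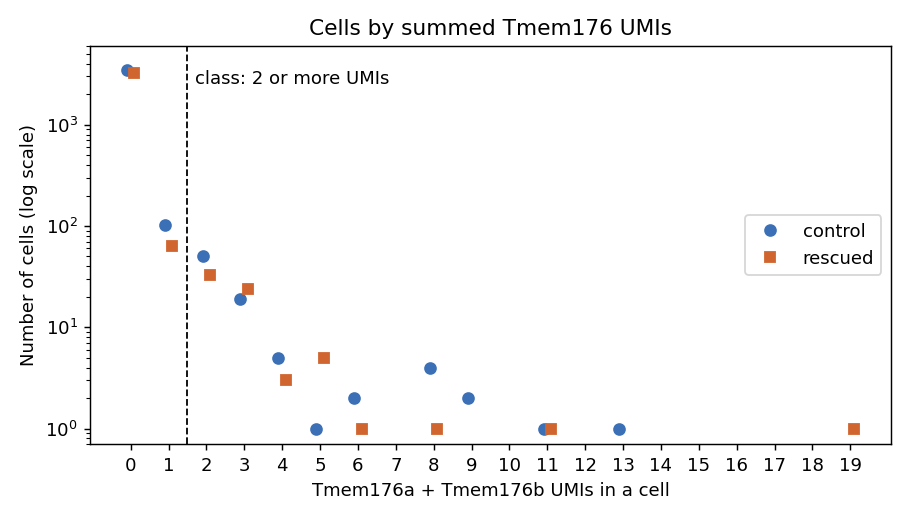
Number of cells (log scale) against the summed Tmem176a and Tmem176b UMIs in a cell, for the control and rescued libraries. The counts fall without a gap past the dashed line that opens the class, from 51 control and 33 rescued cells at 2 UMIs to single cells at 13 and 19.

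Tmem176a and Tmem176b were found in the same cells. Among control cells with a Tmem176a UMI, 57.6% (interval 47.2 to 67.5) also had Tmem176b, against 2.52% of cells without Tmem176a. The rescued shares were 50% (39.0 to 61.0) and 1.42%. Both genes were present in 57 of the 86 control and 43 of the 69 rescued class cells. Tmem176a alone qualified 10 cells in each library. Tmem176b alone qualified 19 control and 16 rescued cells.

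Class cells were somewhat deeper than the others, as a rule on captured molecules favours. Their median UMIs were 4144.5 against 3735 in the control and 4866 against 3831 in the rescued library, and their mitochondrial shares (medians 9.09% against 9.44%, and 8.49% against 9.08%) and doublet scores were close to those of other cells. Of the class cells 4 in the control (4.65%, interval 1.28 to 11.5) and 1 in the rescued library (1.45%, 0.0367 to 7.81) stood among the 3.5% of cells with the highest doublet scores. The deepest class cell, in the control library, had 46139 UMIs, 9.61% of the UMIs of its class, while the next cell of that library had 23013. Levels below are UMIs of a gene per 1000000 UMIs of the population (CPM) and ratios are log2 ratios of CPM, so a difference in depth is scaled out. The libraries shared 3 cell barcodes.

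The 10 genes that define T cells passed the filter on low counts, and none of them (0) was 1.5 times higher or lower in the class in both libraries. Few genes of any kind were, 0.196% higher and 0.363% lower of 3578 tested. The median ratios of the 10 genes were 0.02 and -0.12. TdTomato lay at 408 CPM in control class cells and 389 in other control cells, and at 663 CPM in both rescued populations. Myeloid and dendritic cells also use Tmem176 genes. Of their markers, Lyz2 had 1 UMI in control class cells and 0 in rescued class cells, Cd68, Tyrobp, Spi1 and Ly86 had 0 in both, and Fcer1g had 0 and 1. The MHC class II genes of the list were few in UMIs and mostly higher in the class, H2-Aa with 3 and 4 class UMIs (6.25 against 1.34 and 9.82 against 4.43 CPM), H2-Eb1 with 4 and 11 (8.33 against 3.81 and 27.0 against 12.0 CPM) and H2-Ab1 with 3 and 1 (6.25 against 1.94 and 2.45 against 6.28 CPM). The 16 genes of that list present in the table summed to 504 CPM in the class against 398 in other control cells, and 972 against 685 in the rescued library. Cst3, Cebpb and Cd74, which Treg cells express too, gave most of those UMIs. Of these 3 genes, 2 had ratios above 0 in the control and 3 in the rescued library. Cd74 was higher in the class in both libraries. It had 98 of 479971 class UMIs against 2277 of 14966230 in the control, and 242 of 407475 against 5152 of 15130181 in the rescued library. Why these sums were higher in the class was not tested. Of the 9 B cell genes measured 6 were at 0 in the class in each library, as were 4 and 5 of the 8 CD8 T and NK cell genes. Of the 8 genes of innate lymphoid and γδ T cells 2 were at 0 in each library, and their sums were 52.1 CPM against 49.4 and 88.3 against 67.0, with 16 of 25 and 19 of 36 class UMIs from Tnfsf11, which Treg cells also express. In the rescued class Tcrg-C1 had 8 UMIs in 3 cells (19.6 against 1.78 CPM) and Tcrg-C4 had 5 UMIs in 2 cells (12.3 against 3.5 CPM), while in the control class they had 1 and 0 UMIs. Trdc, the constant gene of the δ chain, had 5 UMIs in the control class and 1 in the rescued class, beside 98 and 37 in other cells. The γδ T cell gene 5830411N06Rik had 1 and 2 UMIs in the class and 1 in the other cells of each library. The part of such cells in the results was not tested. Leaving out cells with a UMI of Lyz2, Cd68, Itgam, Spi1, Fcer1g or Tyrobp kept 85 control and 68 rescued class cells. These genes were nearly absent from the class, and the MHC class II genes, Cd74, Cst3 and Cebpb were not used. This alternative could therefore remove few class cells and does not settle the part of myeloid cells.

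Il18r1, a subunit of the interleukin 18 receptor, was named with the class as a marker. Its ratios of class over other cells were 0.40 (interval -0.11 to 0.86) and 0.21 (-0.38 to 0.74), below 1.5 times in both libraries. Cells with an Il18r1 UMI made up 25.6% of control and 23.2% of rescued class cells against 14.3% and 17.4% of the others, and after thinning 15.1% and 8.70% against 8.47% and 9.55%. Ikzf2 was at 1148 against 1271 CPM in the control and 1428 against 1667 CPM in the rescued library, ratios of -0.15 and -0.22. In the class cells of cluster 1 (clusters are described below) it was lower, at 536 CPM (interval 392 to 715) against 1545 CPM in the other control cells of that cluster and at 992 CPM (767 to 1262) against 1608 CPM in the rescued library. Nrp1, a surface protein of thymus-derived Treg cells, had ratios of -0.12 and -0.48. Of the 4 thymic-origin genes (Ikzf2, Nrp1, Gpr83, Ikzf4), none (0) was 1.5 times lower in both libraries, as was true of all but 0.363% of tested genes. Their medians were -0.23 and -0.33, with 0 genes above 0 in the control and 1 in the rescued library. Gpr83 was lower in the control class and higher in the rescued class. Its ratios were -1.16 and 0.46 with other cells weighted to the cluster makeup of the class. Neither Il18r1 nor Ikzf2 was past 1.5 times in the class as a whole, and it is given no cell type name here.

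Genes of the type 3 programme were mostly too rare for the filter, which asked for 20 expected UMIs in the class in each library. Of 17 listed genes 15 were measured and 5 passed, of which Rora alone was 1.5 times higher in both libraries, a call that ended when other cells were weighted to the cluster makeup of the class (ratios 0.39 and 0.67). The median ratios of these 5 were 0.40 and 0.21, beside -0.01 and -0.0026 over all 3578 genes. In both libraries this median is the ratio of Il18r1 itself, a member of the list, whose intervals are given above. Rora, a nuclear receptor that takes part in type 3 differentiation, was at 113 against 62.6 CPM (control, ratio 0.85, interval 0.42 to 1.24) and 155 against 88.9 CPM (rescued, 0.80, 0.41 to 1.16). Maf, a transcription factor of intestinal Treg cells, was higher in the control class, at 650 against 336 CPM (0.95, 0.78 to 1.12). In the rescued class it was at 719 against 632 CPM (0.19, 0.01 to 0.36).

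The receptors of the list given next lay below the filter, and their UMIs came from few cells. Cxcr6, the receptor for CXCL16, had 25 UMIs in 9 control class cells and 15 UMIs in 5 rescued class cells, with ratios of 2.25 (interval 1.58 to 2.86) and 2.11 (1.23 to 2.89). Ltb4r1, the high-affinity leukotriene B4 receptor, had 24 UMIs in 13 cells and 11 UMIs in 5 cells, with ratios of 4.02 (3.25 to 4.77) and 1.96 (0.91 to 2.86). These ratios differ between the libraries, and 6 of the 11 rescued Ltb4r1 UMIs came from 1 cell, without which the ratio was 0.82. A Ltb4r1 UMI was present in 15.1% of control and 7.25% of rescued class cells against 0.874% and 1.87% of others, and after thinning in 8.14% and 2.90% against 0.488% and 0.973%. Ccr6, which guides cells to CCL20 in mucosa, was at 68.8 against 28.1 CPM in the control class (1.29, 0.73 to 1.81) and 51.5 against 40.7 CPM in the rescued class (0.34, -0.36 to 0.97), where it was -0.47 without the cell of most UMIs. Il23r, the receptor for interleukin 23, had 1 and 2 UMIs in the class and 2 and 1 elsewhere. Il17re, a receptor for interleukin 17C, had 3 and 1 UMIs in the class and 0 in the 6869 other cells. The interleukin 17F gene, Il17f, had 0 UMIs in the class.

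Levels are given next by the number of Tmem176 UMIs, as a description, because the rule used that number. Ltb4r1 lay at 3.11 CPM in control cells with 0 Tmem176 UMIs, 2.08 with 1, 22.8 with 2 and 82.9 with 3 or more. In rescued cells the levels were 6.78, 12.9, 5.20 and 46.5 CPM. Cxcr6 lay at 11, 8.31, 30.4 and 78.3 CPM over the control groups and at 8.41, 12.9, 15.6 and 55.8 CPM over the rescued groups. The values just outside the rule (1 UMI) and just inside it (2 UMIs) rested on 4 and 8 Cxcr6 UMIs in the control and on 5 and 3 in the rescued library. For both genes the highest level in each library was in cells with 3 or more Tmem176 UMIs. The chemokine receptor Ccr2 lay at 29.1, 39.5, 133 and 244 CPM in control and at 64.1, 116, 192 and 251 CPM in rescued cells, higher at each step.

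Across all genes the class was close to other cells. With genes at 20 expected UMIs or more and both Tmem176 genes left out, 7 of 3578 genes (0.196%) were at least 1.5 times higher in both libraries. In the same way 13 genes (0.363%) were at least 1.5 times lower. Every gene of the class was available to the same cells that the rule chose, so these counts describe the class and are no evidence for it. In the control library alone 61 genes were higher and 85 lower, and in the rescued library alone 39 and 128.

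The 7 higher genes were S100a4, S100a6, Lgals1, Lztfl1, Id2, Rora and Hcfc1. S100a4, a calcium-binding protein of motile and effector T cells, was at 1267 against 350 CPM in the control (1.86, interval 1.73 to 1.98) and 1647 against 575 CPM in the rescued library (1.52, 1.40 to 1.63). Its UMIs were in 38.4% and 46.4% of class cells against 13.8% and 28.1% of others, and after thinning in 32.6% and 31.9% against 10.9% and 22.6%. S100a6, of the same family, was at 1183 against 301 CPM (1.98) and 1097 against 675 CPM (0.70), so its excess was larger in the control class. Lgals1, the galectin through which Treg cells can restrain other T cells, was at 854 against 329 CPM (1.38) and 1048 against 492 CPM (1.09). Single cells held much of these sums. For S100a4 1 cell gave 15.8% of control and 24.3% of rescued class UMIs, and for S100a6 1 cell gave 30.1% of the control class UMIs. Id2, an inhibitor of E proteins used by effector lymphocytes, had ratios of 1.33 and 0.65, but 0.18 in the rescued library without its top cell. Lztfl1, a ciliary trafficking protein, had ratios of 1.59 and 0.82. Hcfc1, a chromatin cofactor, had ratios of 0.62 and 0.60. Without the cell of most UMIs of each gene 3 of the 7 stayed past 1.5 times in both libraries. With other cells weighted to the cluster makeup of the class S100a4, Lgals1 and Lztfl1 did, and S100a6 (0.30), Id2 (0.52) and Hcfc1 (0.56) in the rescued and Rora (0.39) in the control library did not.

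Of 13 measured S100, annexin and galectin genes 9 passed the filter and 3 were past 1.5 times in both libraries (S100a4, S100a6, Lgals1). All 9 had ratios above 0 in both libraries, as did 25.4% of the 3578 tested genes. The smallest rescued ratio was 0.15 (Anxa5, interval -0.30 to 0.57). Medians were 0.51 and 0.57. Lgals3, a galectin of effector and tissue Treg cells, did not pass the filter. It had 29 UMIs in each class, with ratios of 2.73 (interval 2.10 to 3.32) and 2.70 (2.08 to 3.27), but came from 6 control and 7 rescued class cells, 13 and 12 of those UMIs from 1 cell each.

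Among 22 homing receptors 12 passed the filter and none (0) was 1.5 times higher or lower in both libraries. Of all tested genes 0.196% were higher and 0.363% lower in both. Ccr2, the receptor for CCL2 on cells that enter inflamed tissue, did not pass the filter and was at 183 against 29.4 CPM (2.64, interval 2.29 to 2.97), and was at 223 against 65.4 CPM in the rescued library (1.77, 1.44 to 2.08). It had UMIs in 19.8% and 23.2% of class cells against 3.75% and 8.67% of others. Ccr9, the receptor for the small intestinal chemokine CCL25, did not pass the filter either. It was at 93.8 against 22.7 CPM (2.05) and 194 against 107 CPM (0.85). In the control class 37 of its UMIs were in 6 cells of cluster 1, of which it is a leading gene. Without that cluster the control ratio changed sign.

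Genes lower in the class rested on few UMIs. Penk, the precursor of enkephalin peptides made by Treg cells, was lowest, at 16.7 against 61.4 CPM in the control (-1.88, interval -3.10 to -0.90) and 17.2 against 66.2 CPM in the rescued library (-1.95, -3.26 to -0.90). Its class UMIs were 8 in 3 cells and 7 in 4 cells. Ccl5, a chemokine of effector T cells, had ratios of -0.91 and -1.17, and Nrn1, neuritin, of -0.61 and -1.22. Tnfrsf9, the costimulatory receptor 4-1BB, had ratios of -0.77 and -0.81. Cblb, a ubiquitin ligase that restrains T cell activation, had ratios of -0.84 and -0.63. The other named genes were Las1l, Ndufaf4, Ctdspl2, Gtf3c2 and Ciao1, with ratios between -0.94 and -0.59.

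Treg identity genes showed little difference. Of 13 listed genes 12 passed the filter, 0 were higher and 1, Tnfrsf9, was lower in both libraries, with medians of -0.11 and -0.11. Of all tested genes 0.196% were higher and 0.363% lower in both. Foxp3 had ratios of -0.24 (interval -0.79 to 0.26) and 0.01 (-0.21 to 0.22). It was at 68.8 CPM in control and 471 CPM in rescued class cells. The Foxp3 alleles of the libraries were engineered differently, and how far the 3′ reads capture each was not tested. The 10 activation genes named by the study, whose choice is not independent of these cells, had medians of 0.05 and 0.15 over 7 genes, and none (0) was past 1.5 times in both. The 5 genes of the persisting subset named by the study, to which the same applies, had medians of -0.10 and -0.11 over 4 genes. Of 12 resting genes 7 passed, with medians of -0.10 and 0.08.

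**Figure D2:**
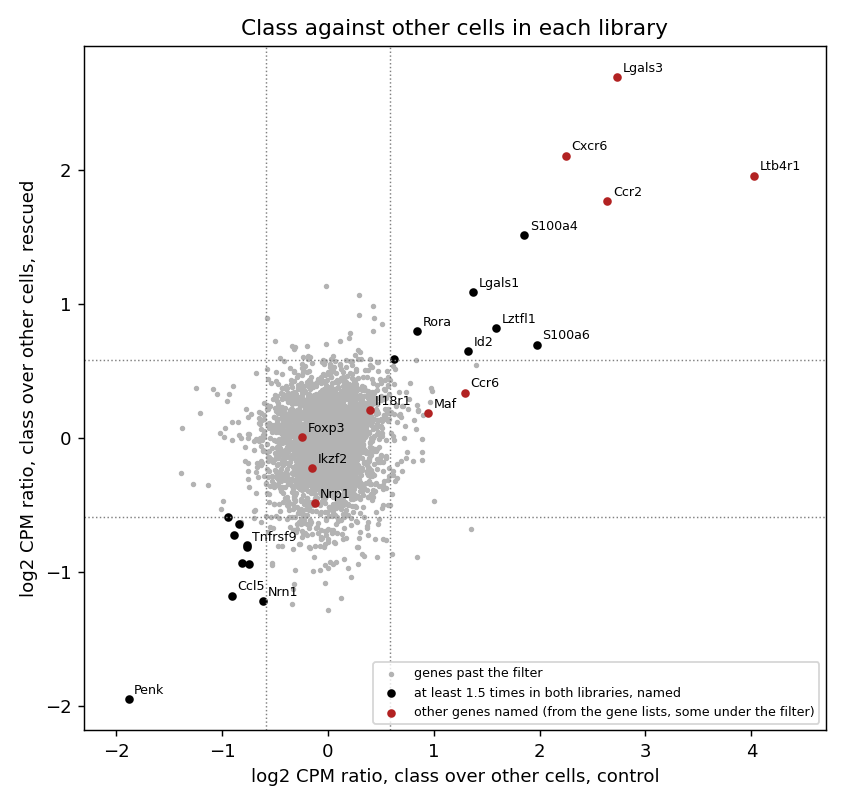
Log2 CPM ratio of class over other cells for each gene past the filter (grey, black) and for named list genes, some of them under it (red), control library (horizontal) against rescued library (vertical), with dotted lines at 1.5 times. The cloud sits around 0, S100a4, Lgals1 and S100a6 lie past the lines in the upper right, Penk lies in the lower left, and Ltb4r1 (4.02 and 1.96), Lgals3 (2.73 and 2.70), Cxcr6 and Ccr2, all under the filter, lie farther to the upper right than the genes past it.

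Class cells were found in every cluster. Cells had been grouped here by expression with Tmem176a and Tmem176b left out, which gave 11 clusters numbered 0 to 10. In the control library the class share was highest in cluster 1, at 15 of 100 cells (15%, interval 8.65 to 23.5). In the rescued library the same cluster held 17 class cells of 838 (2.03%, 1.19 to 3.23). The intervals do not overlap. Cluster 1 thus gave 17.4% of control class cells but 2.75% of control cells, and 24.6% of rescued class cells against 24.7% of rescued cells. Its leading genes were Marcks, Ccr9, Mmp9, Asb2 and Cxcr6. Cluster 3, led by Lgals3, Ube2c, Klrg1, Ccr2 and S100a4, had class shares of 4.02% (7 of 174) and 3.41% (14 of 411). Cluster 2 had low shares in both libraries, 0.911% and 0.765%. Cluster 4, whose leading gene was the resting marker Ly6c1, gave 36.0% of control class cells and 36.1% of control cells, and 2.90% and 2.77% in the rescued library. Cluster 2 gave 5.81% of control class cells against 15.1% of control cells, and 4.35% against 11.6% in the rescued library. Cluster 3 gave 20.3% of rescued class cells against 12.1% of rescued cells.

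**Figure D3:**
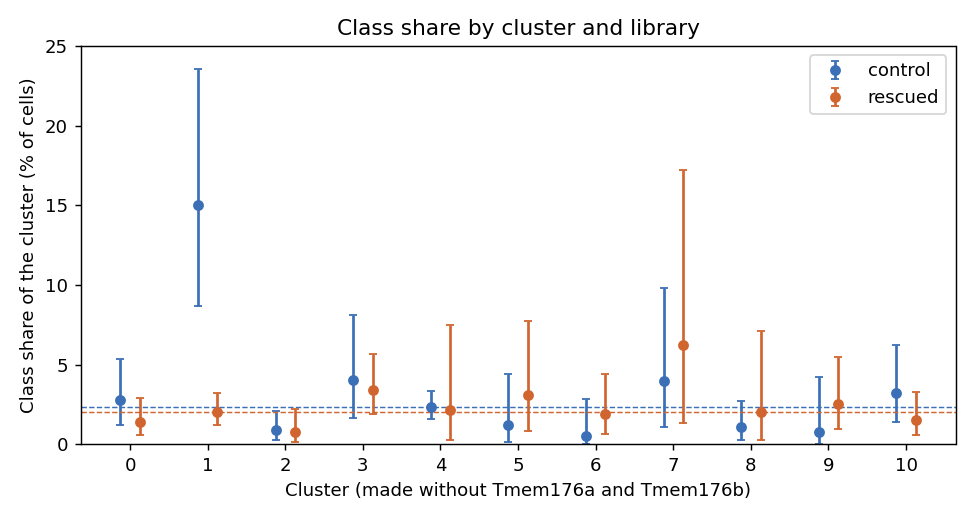
Class share of each cluster (% of cells, with exact binomial 95% intervals) in the control and rescued libraries, and dashed lines at the shares of the whole libraries (2.37% and 2.04%). Control cells of cluster 1 stand apart at 15%, and the other intervals are wide.

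The Ltb4r1 UMIs of the control class came mainly from cluster 1. Of 24 UMIs 18 were in the 15 class cells of that cluster, 9 of which had one. The level was 210 CPM (interval 124 to 331) there and 30.5 CPM in the other 85 control cells of cluster 1. In the control class cells of cluster 3 it was 16.7 CPM, from 1 UMI, against 33.4 CPM in other cells, and in those of other clusters 15 CPM against 0.437 CPM. In the rescued class Ltb4r1 had 2 UMIs in cluster 1, 9 in cluster 3 and 0 in other clusters. Without all cells of cluster 1 its ratios were 2.63 and 1.80. Ccr6 was at 221 and 165 CPM in the class cells of cluster 1 against 61.1 and 40.8 CPM in the other cells of that cluster, but the rescued value rests on 11 UMIs in 3 cells, 9 of them in 1 cell. Without cluster 1 the Ccr6 ratios were 0.38 and -0.47. Cxcr6 had 20 and 12 UMIs in the class cells of cluster 1, 5 and 3 in those of cluster 3, and 0 in the remaining 64 control and 38 rescued class cells. Without cluster 1 its ratios were 0.59 and 0.64. Cxcr6, Ccr2 and Lgals3 are leading genes of these clusters, so where they fall is a description and not a separate finding.

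Some cells held UMIs of several of these genes. A panel of 7 genes (Ltb4r1, Cxcr6, Ccr6, Il23r, Il17re, Ccr2, Lgals3) was put together after their values had been seen. An excess in class cells follows in part from that choice. Cells were not thinned for these counts, and the number expected from the genes taken apart was not worked out. In the control class 10 of 86 cells (11.6%, interval 5.72 to 20.3) had UMIs of 3 or more of them, against 24 of 3548 other cells (0.676%). In the rescued class it was 6 of 69 (8.70%, 3.26 to 18) against 33 of 3321 (0.994%). No panel gene was detected in 59 control class cells (68.6%) and 42 rescued class cells (60.9%). Of the 10 control cells 8 were in cluster 1, where they made up 53.3% of its class cells (interval 26.6 to 78.7), while 5 of the other 85 cells of that cluster (5.88%) had 3 or more. In rescued cluster 1 it was 2 of 17 class cells and 6 of 821 others (0.731%). In cluster 3 it was 1 of 7 and 4 of 14 class cells against 17 of 167 (10.2%) and 25 of 397 (6.30%) others. Outside both clusters it was 1 of 64 control and 0 of 38 rescued class cells. Cxcr6, Ccr2 and Lgals3 lead these clusters, so this split is a description too.

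**Figure D4:**
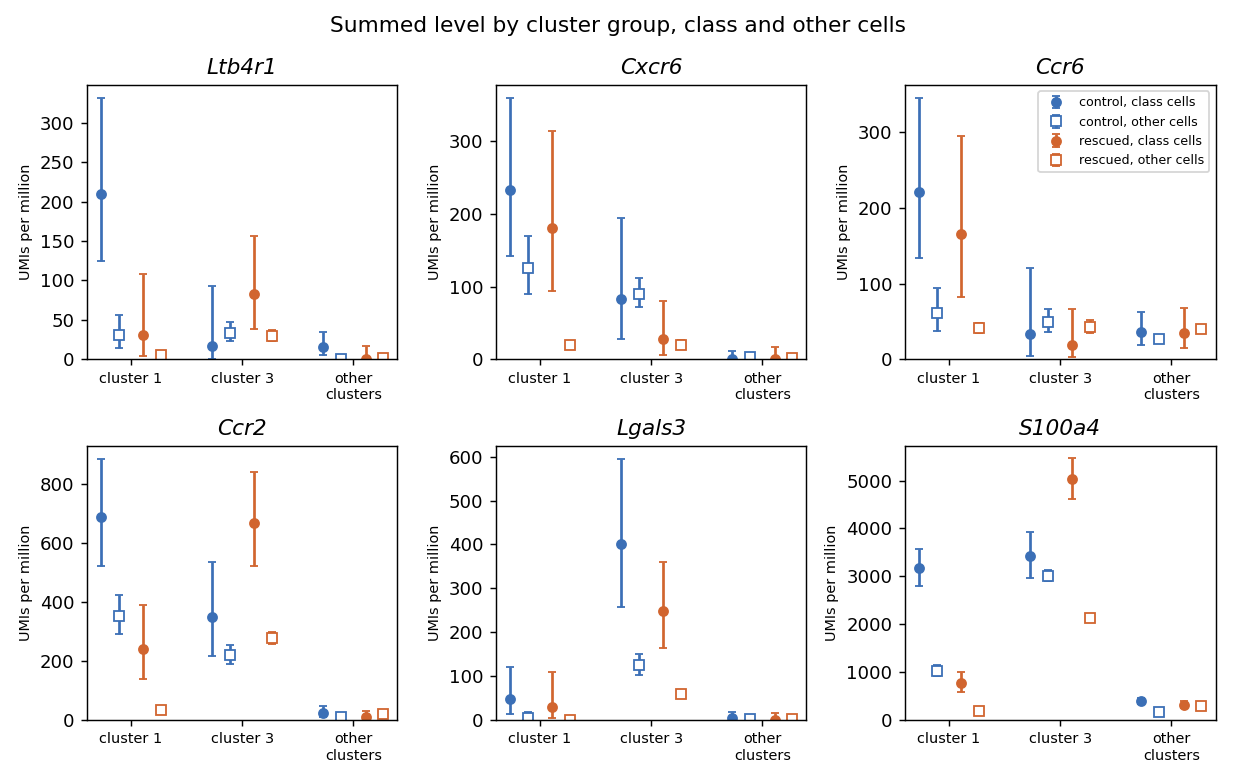
Level (CPM, with exact Poisson 95% intervals) of Ltb4r1, Cxcr6, Ccr6, Ccr2, Lgals3 and S100a4 in class cells (filled) and other cells (open) of cluster 1, cluster 3 and the other clusters, by library. Ltb4r1 is highest in the control class cells of cluster 1 (210), Lgals3 in the class cells of cluster 3, and among class cells Cxcr6, Ccr2 and S100a4 are lowest in the other clusters.

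S100a4, a leading gene of cluster 3, also differed by cluster, in class and in other cells, so its place is a description. In control class cells it was at 3169 CPM in cluster 1, 3419 CPM in cluster 3 and 392 CPM elsewhere. The other control cells were at 1026, 3016 and 159 CPM. In rescued class cells it was at 767, 5026 and 306 CPM, and in other rescued cells at 188, 2134 and 288 CPM. Maf was detected in all 15 control and all 17 rescued class cells of cluster 1, at 1853 and 1308 CPM. The other cells of cluster 1 were at 1694 and 833 CPM. The intervals of class and other cells overlapped in the control library (1576 to 2164 and 1556 to 1842) and not in the rescued library (1047 to 1613 and 802 to 865). When other cells were weighted to the cluster makeup of the class, the Ltb4r1 ratios were 2.48 and 1.45, the S100a4 ratios 0.95 and 1.11, and the Maf ratios 0.17 and 0.15.

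Rescued and control cells were then compared inside the class. With 20 expected UMIs in each, 245 of 3607 genes (6.79%) were at least 1.5 times higher in the rescued class and 242 (6.71%) at least 1.5 times lower. In all other cells 107 of the same genes were higher and 57 lower, where the counts are far larger. Of the 245 genes 66 were also higher in other cells, and of the 242 genes 38 were also lower. The class ratios carry wide intervals, and a count of small populations past a fixed fold includes genes that pass by counting error.

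Among the 10 highest genes were Foxp3 and some markers of activated and tissue Treg cells. Foxp3 was higher by 2.78 (interval 2.24 to 3.36) in the class and 2.53 in other cells. The Foxp3 alleles of the libraries were engineered differently, and how far this ratio reflects their capture was not tested. Itgae, the CD103 integrin chain that binds epithelial cadherin, had 28 UMIs in control and 145 in rescued class cells, a ratio of 2.61 (2.02 to 3.25) beside 2.02 in other cells. Klrg1, a receptor of terminally differentiated Treg cells, had a ratio of 2.01 (1.05 to 3.07) beside 0.96, and of 0.94 with the control class weighted to the clusters of the rescued class. Gpr83, a receptor enriched in Treg cells, was at 41.7 CPM in control and 162 CPM in rescued class cells, a ratio of 1.96 (1.22 to 2.76), and had a ratio of 0.34 in other cells. A Gpr83 UMI was in 17.4% of control class cells against 23.3% of other control cells. In the rescued library it was in 43.5% against 30.1%, so the ratio also reflects a low control class. Zcchc18, Gm4951, Rnf149, Gadd45b and Cybb, the heme subunit of the phagocyte oxidase, had ratios between 1.65 and 2.27. Areg, amphiregulin, a growth factor of tissue repair, had the highest ratio, 5.07, yet 95.6% of its 114 rescued class UMIs were in 1 cell, and without that cell the ratio was 0.56.

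Genes of resting T cells were lower in the rescued class. Tcf7, the transcription factor TCF-1, had 95 UMIs in control and 24 in rescued class cells, a ratio of -1.75 (interval -2.46 to -1.09) beside -1.40 in other cells. Ly6c1, a surface protein of resting Treg cells, had a ratio of -1.81 beside -2.42. Of 12 listed resting genes 10 passed the filter, 8 were at least 1.5 times lower (Tcf7, Lef1, Klf2, S1pr1, Satb1, Igfbp4, Ly6c1, Actn1) and 0 higher. Over all 3607 genes 6.71% were lower and 6.79% higher. The median of the resting genes was -0.85 in the class and -1.26 in other cells. With the control class weighted to the clusters of the rescued class, the Ly6c1 ratio became 0.43. Klf7 had a ratio of -2.50 (-4.03 to -1.25) beside -0.99, and Tbc1d4, which governs glucose transporter traffic, of -1.93 beside -0.58. Trib2, Hspa1b, Pdlim1 and Lman2l had ratios between -1.72 and -1.55. Stmn1, a microtubule regulator of dividing cells, had a ratio of -2.21, but 69.5% of its 82 control UMIs were in 1 cell and the ratio without it was -0.50.

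Of the 20 named genes 18 had the same sign in other cells, and 17 of these were farther from 0 in the class. The 20 genes were picked as the highest and lowest ratios in the class, where counts are small. Lying farther from 0 there follows in part from that choice and is no sign of a larger difference in the class. The exceptions in sign were Lag3 (-1.59 in the class and 0.44 elsewhere) and Stmn1 (0.13 elsewhere). Past 1.5 times without their top cell were 18, all but Areg and Stmn1.

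**Figure D5:**
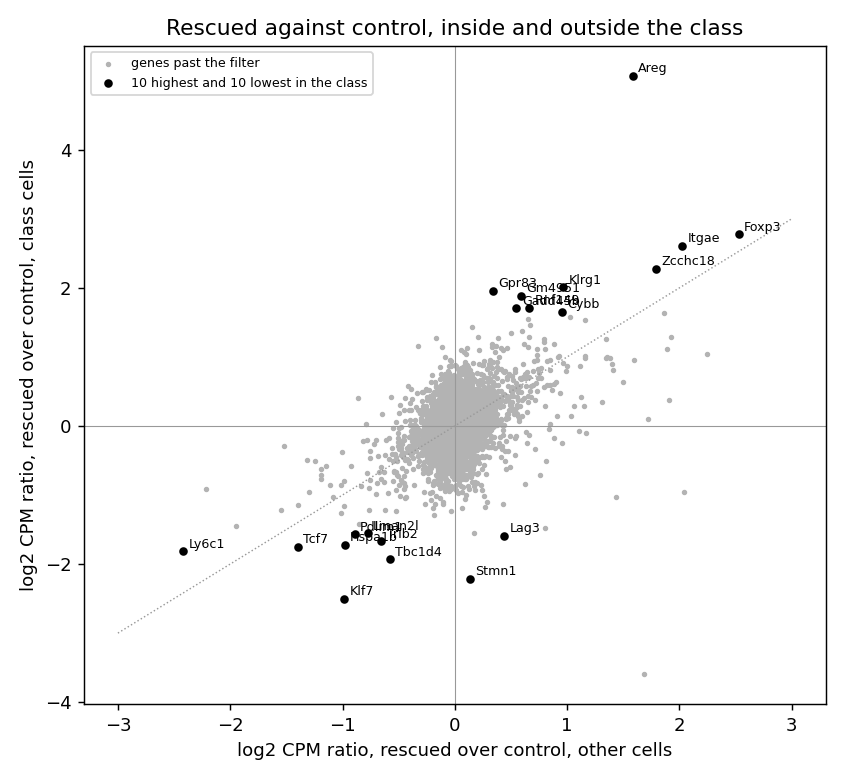
Log2 CPM ratio of rescued over control cells for each gene, in other cells (horizontal) and in class cells (vertical), with a dotted line of equality (black: named genes; antigen receptor, ribosomal and mitochondrial genes were not named). Foxp3, Itgae and Zcchc18 lie high and Tcf7 and Ly6c1 low in both, Areg (5.07) and Stmn1 (-2.21) rest mainly on 1 cell each, and Gpr83 (1.96 against 0.34) and Lag3 (-1.59 against 0.44) leave the line.

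By list, 6 of 12 Treg identity genes were at least 1.5 times higher in the rescued class (Foxp3, Ctla4, Tnfrsf18, Tnfrsf4, Tnfrsf9, Lrrc32) and 0 lower. Their median was 0.57 beside 0.72 in other cells. The limit given for Foxp3, its differently engineered alleles, holds here too. Over all 3607 genes 6.79% were higher and 6.71% lower. Of 8 activation genes of the study 5 were higher and 0 lower, with medians of 0.66 and 0.90. Of the 4 persisting-subset genes that passed, 3 were higher (Ifngr1, Lrrc32, Il4ra). Both lists were chosen by the study with these cells in view and are no independent evidence. The type 3 list showed 0 of 6 genes past 1.5 times in either direction, with a median of 0.10 beside 0.33. The median over all 3607 genes was 0.02 in the class and 0.02 in other cells.

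The type 3 genes themselves had intervals that included 0 when class cells of the libraries were compared. The rescued over control ratio inside the class was -0.50 for Cxcr6 (interval -1.53 to 0.48), -0.89 for Ltb4r1 (-2.07 to 0.20) and -0.42 for Ccr6 (-1.28 to 0.42). These intervals leave room for differences of 2 times or more in Cxcr6, Ltb4r1 and Ccr6, so equality is not shown. TdTomato was at 408 and 663 CPM, a ratio of 0.70 in the class beside 0.77 in other cells. By tdTomato UMIs, the class share of control cells was 2.45% at 0 UMIs, 2.03% at 1 to 3 and 3.42% at 4 or more (interval 1.97 to 5.49). In rescued cells it was 1.94%, 1.57% and 2.84% (1.81 to 4.24). These intervals overlap throughout. A tdTomato UMI was in 63.0% of other control cells and 55.8% of other rescued cells. Flow cytometry in the study found far more labelled Treg cells in rescued than in control mice. Groups by tdTomato UMIs are therefore not labelled and unlabelled cells.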

How the data were processed

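Spleen and lymph node cells were sorted on GFP in consecutive rounds and profiled by 10x 3′ single-cell RNA sequencing. The authors deposited 1 table of whole-number UMI counts (7024 cells, 16098 genes), made with Cell Ranger 3.0 on mm10 (GRCm38) with the tdTomato reporter added. The submitters' processing notes also name Seurat 3.1.5. The methods state that cells over 5% mitochondrial transcripts were removed, yet 98.1% of control and 97.1% of rescued cells in the table exceed 5% over its 13 mitochondrial genes, and no such filter was added here. The authors' log-scale table was not used. Columns of per-sample values left unused numbered 0.

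Counts were summed over cells by library and scaled to 1000000 UMIs (CPM). Ratios needed 20 expected UMIs in the smaller population, and a gene was called at 1.5 times, in both libraries for class against other cells. A count of 0 on one side was set to a floor of 3 counts for ratios. Intervals are 95%: Clopper-Pearson for shares, exact Poisson for levels, conditional exact for ratios. UMIs remove amplification copies, and intervals and floors cover counting error only. Shares of cells were also read after thinning to 2000 UMIs, leaving out shallower cells (65 control and 33 rescued, none of them in the class). Clusters came from scanpy 1.11.5 (2000 variable genes, 40 components, 15 neighbours, Leiden resolution 1), with Tmem176a and Tmem176b left out. No doublets were removed; Scrublet scores served an alternative without the highest 3.5%. Python 3.11.15, numpy 2.4.6, scipy 1.17.1 and pandas 2.3.3 were used, and the scripts were tested on simulated data. Named genes were the 15 highest and 10 lowest by mean ratio for class against others, the 10 highest and 10 lowest for rescued against control, without mitochondrial, ribosomal and antigen receptor genes, plus Tmem176a, Tmem176b, Il18r1, Foxp3, tdTomato and members of 21 gene lists. Some genes are not reported here, and the lists were counted without them. The class, the lists and the named genes were chosen with earlier results of these data known. Alternatives changed the class rule, the cells kept, the scaling, the matching, the filter and the fold.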

Additional observations from a re-analysis of the deposited data

Results flagged for a closer look

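Of 3578 genes, 3 were at least 1.5 times higher in class cells of one library and at least 1.5 times lower in those of the other. Lag3, an inhibitory receptor that binds MHC class II, had log2 ratios of class over other cells of 1.35 in the control and -0.68 in the rescued library, from 78 and 22 class UMIs, and 46.2% of the control UMIs were in 1 cell. Mmd had ratios of 0.60 and -0.86. Nab2, a corepressor of EGR transcription factors, had ratios of 0.84 and -0.88. With 1 library per group, the difference between the libraries was not tested for any of these genes.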

How the results depend on the processing

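Of the values for single genes and lists, 1581 were counted as unmoved under an alternative, 259 as moved and 16 as changed in sign. A ratio that stayed inside its reported counting interval could count as unmoved. Changes of sign were counted only for ratios past the reported fold. Smaller ratios also changed sign. In the control library the Il18r1 ratio of class over other cells went from 0.40 to -0.018 under cluster matching, counted as unmoved. The rescued Ccr6 ratio went from 0.34 to -0.47 without cluster 1, counted as moved. Class shares (control, rescued) were 5.17% and 3.92% at 1 UMI or more, 0.963% and 1.06% at 3 or more, 1.57% and 1.27% with a UMI of each gene, and 1.01% and 0.745% when read from thinned cells. Genes higher in the class (reported 7) numbered 12 at 1 UMI or more and 12 with cells weighted equally, 4 without cells over 10% mitochondrial UMIs, 3 under cluster matching, 18 and 3 at 10 and 50 expected UMIs, 2 at a fold of 2, and, in alternatives chosen after seeing the data, 2 without cluster 1 and 3 without the top cell of each gene. Genes lower in the class (13) numbered 4 with a UMI of each gene, 8 under the mitochondrial limit, 55 and 3 at 10 and 50 expected UMIs, 1 at a fold of 2 and 6 without cluster 1. Genes higher and lower in the rescued class (245 and 242) numbered 161 and 156 at 3 UMIs or more, 70 and 73 from thinned cells, 576 and 618 at 10 and 66 and 50 at 50 expected UMIs, 51 and 45 at a fold of 2, and 138 and 100 without top cells. The higher count was 393 at 1 UMI or more and 379 under cluster matching. List genes higher in the class (5) numbered 3 at 3 UMIs or more, 2 under cluster matching, 2 without cluster 1 and 3 without top cells.

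The counted changes of sign were as follows. For class over other cells, signs changed at 1 UMI or more for Las1l (control, 0.030) and Lag3 (rescued, 0.34). At 3 or more they changed for Nrn1 (control, 0.16). From thinned cells they changed for Hcfc1 (control, -0.032), Las1l (rescued, 0.47), Tnfrsf9 (rescued, 0.047), Mmd (control, -1.29) and Nab2 (rescued, 0.36). Without cluster 1 they changed for Id2 (-0.14), Ccr9 (-0.075) and Lag3 (-0.70), all control. For rescued over control class cells they changed for Cybb (-0.35) at 3 UMIs or more, Areg (-1.21) and Stmn1 (0.96) from thinned cells, Ly6c1 (0.43) under cluster matching and Lag3 (0.43) without cluster 1. The cause was not tested.

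No paired analysis was possible because control and rescued cells come from a single pooled library apiece, and the number 1 that both carry only names them. Leaving out libraries in turn was not run, since it empties a group. Depth limits every value of the type 3 genes, which rest on 1 to 33 UMIs per class for Cxcr6, Ltb4r1, Ccr6, Il23r and Il17re.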

Other observations

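Other lists described the class as follows, where 0.196% of all tested genes were higher and 0.363% lower in both libraries. Of 20 suppressor and effector genes 8 passed the filter, with Lgals1 higher, Penk lower and medians of 0.59 (control) and -0.02 (rescued). Of 19 lineage transcription factors 11 passed, with Rora and Id2 higher, 0 lower and medians of 0.16 and 0.02. Of 17 cytokine genes 2 passed, with 0 past 1.5 times in both libraries and medians of -0.15 and -0.20. Of 10 CD20-like family genes, which include the relatives of the Tmem176 genes, 2 passed, with 0 past 1.5 times in both and medians of -0.32 and 0.04. Of 13 interleukin 1 family receptor and signalling genes Il18r1 alone passed (1 gene).

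Of 14 cell cycle genes 3 passed the filter, with medians of 0.50 in the control and -0.17 in the rescued library. In the control library 3 of them lay above 0, and in the rescued library 1. The summed level of the 14 genes was 1644 CPM in control class cells and 876 CPM in other control cells, beside 906 and 830 CPM in the rescued library. In the control class 42.2% of those UMIs (333 of 789) were in 1 cell, and the median cell was at 752 CPM in the class and 746 CPM among other control cells. Immediate early and stress genes had medians of -0.03 and -0.08 over 8 genes, with 0 past 1.5 times in both. The 5 red blood cell genes had 0 UMIs in the class.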
